A study of Drosophila melanogaster with 6 samples.

Results

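The genes described here are 10 regulators of mRNA translation and localization of the *Drosophila* female germline: *nos*, *pum*, *bru1*, *orb*, *cup*, *egl*, *BicD*, *Bic-C*, *osk* and *Rbp9*. They were taken from the table of normalized gene counts by symbol (*Bic-C* is listed there as *BicC*), as a set drawn up with earlier results of these data known, and are 10 of its 17807 genes. RNA was sequenced from ovarian somatic cells (OSCs), a *Drosophila melanogaster* line of follicle cell origin, to ask which genes depend on *ovo*, the gene of a zinc finger factor that activates transcription in female germ cells. The cells of both groups carried an *l(3)mbt* knockout (Δ*l(3)mbt* OSCs). In the soma, L(3)mbt binds chromatin and keeps germline genes off. The *ovo* siRNA group (n = 3 libraries) received siRNA duplexes of 21 nt against *ovo*, the *renilla* siRNA group (n = 3) received duplexes against *renilla*, a luciferase gene that flies do not have, and RNA was harvested at 48 h in both. As a model the line holds no germ cells, and no selection of transfected cells is described for it.

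In the ovary, many mRNAs are made in nurse cells, carried into the oocyte and kept silent until they reach the place where their protein is needed. Egl and BicD link such mRNAs to the dynein motor, Bru1 and Cup hold *osk* mRNA silent on the way, and Orb and Bic-C act on the poly(A) tail. Oskar builds the pole plasm, and Nanos and Pumilio repress translation of their targets in the embryo and in germline stem cells.

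The duplex against *ovo* is shown because it defines the treatment. Of its 21 nt per strand, 19 match the *ovo* coding sequence at X:5066361-5066379 (Release 6, dm6), and the other two are at the 3′ end.
ovo siRNA sense: ggagcugcguggacgacgagg
ovo siRNA antisense: ucgucguccacgcagcuccuu

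The study gives CCGTTA as the motif of Ovo, and the looser CNGTTA, which includes CCGTTA, was searched as well. Both strands were read from 250 bases before to 50 bases after the start of the transcript that Ensembl marks as canonical. CCGTTA stood in this window in *nos*, *cup*, *BicC* and *osk*, which are 4 of the 10 genes, while 8.83% of 13967 protein-coding promoters held it. These are also the 4 genes that were not tested, *nos* for its few reads and the other 3 with most of their exons shared with another gene. The stretches around each match are shown with the motif in capitals (TAACGG is CCGTTA on the other strand), as read from the plus strand of Release 6. Counted from the start as base 1, with negative positions before it, the match began at -3 in *nos*, at -114 in *osk*, at -143 and -118 in *BicC* and at 24 in *cup*.
nos, 3R:19157223-19157252: tctaagcaagaaCCGTTAgttggcgcgtag
osk, 3R:8935000-8935029: gcaaactgctcaCCGTTActtctgttgcgc
BicC, 2L:16041892-16041921: aagctccgtttcCCGTTAtaaagctattgc
BicC, 2L:16041917-16041946: attgctgaatatCCGTTAtccagttggctg
cup, 2L:6663675-6663704: tttgtaacagaaTAACGGcttttatgtaat

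CNGTTA stood in 38.7% of the same promoters and also in those of *bru1*, *egl* and *Rbp9*. The gene *bru1* has 6 annotated start sites, and CCGTTA began at -30 of one of them and at -189 of another. These stretches are given because *bru1* is the only tested member with CCGTTA in the window of any annotated start. No match to either motif was found in this window of *pum*, *orb* or *BicD* at any annotated start. In a wider window of 500 bases on each side, a span the study also used, 21% of promoters held CCGTTA. There it stood at the canonical starts of the tested members *bru1*, *orb* and *BicD* as well, and at another start of *Rbp9*. A match is a run of letters and not a binding site, and its absence says nothing about Ovo.
bru1, 2L:12174962-12174991: taaaagcccgcaCCGTTAgactttatctgc
bru1, 2L:12270731-12270760: aaacttgatcacCCGTTAattttaatacca

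The libraries held 14276921 to 21481506 counted reads with *ovo* siRNA and 2759594 to 11623446 with *renilla* siRNA, where replicate 3 was the smallest. That library stood apart: the second principal component, with 30.8% of the variance, placed it at -36.5 and the other 2 *renilla* siRNA libraries at 24.0 and 25.1. An observed 0 still allows 3 reads, which are worth 1.39 to 2.18 normalized counts with *ovo* siRNA and 2.73 to 13.1 with *renilla* siRNA. *ovo* itself had 961, 885 and 875 normalized counts with *ovo* siRNA, against 1300.0, 1590.4 and 1642 with *renilla* siRNA, a log2 fold change of -0.73 ± 0.13 (SE; limma adjusted p = 0.00862). The groups did not overlap, and after a trend with exonic GC and length was taken out of each library (detrending), *ovo* was at -0.37 with an adjusted p of 0.19. Leaving out *ovo* siRNA replicate 2 put it at -0.71, also short of the threshold (adjusted p = 0.0601). *l(3)mbt* had 2911 ± 426 normalized counts with *ovo* siRNA and 2334 ± 582 with *renilla* siRNA (SD). It did not pass the test, and counts over a whole gene cannot check its knockout.

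The line was checked against marker lists. The follicle cell markers *tj*, the gene of a large Maf factor, and *fs(1)Yb*, a somatic piRNA factor, were present in every library, and the 8 follicle cell markers summed to 22674 to 26558 normalized counts with *ovo* siRNA and 43031 to 44280 with *renilla* siRNA. Of the 8, 4 fell and 1, *fs(1)Yb*, rose, where 14.1% of all genes tested fell and 11.8% rose. When 1 library was left out there were 3 to 6 falls and 0 to 1 rises. The 3 falls without *ovo* siRNA replicate 2 stand beside 380 of all 7856 genes tested, and the 6 without *renilla* siRNA replicate 3 beside 1883 of 7723. After detrending 3 of the 8 fell and 1 rose, where 12.3% and 16.3% of all genes did. Most of the difference in the sum came from *chinmo*, with 9601 ± 1752 normalized counts with *ovo* siRNA and 23472 ± 1444 with *renilla* siRNA (SD). Of the 11 germ cell markers 6 were tested and 2 fell, *aub* and *AGO3*, which encode the piRNA-binding PIWI proteins of the germline, where 14.1% of all genes tested fell. The falls were 0 without *ovo* siRNA replicate 2 (3 lower at an unadjusted p of 0.05), 3 without *renilla* siRNA replicate 3, and 1 when *renilla* siRNA replicate 1 or 2 or *ovo* siRNA replicate 1 was left out or after detrending. *AGO3* was low, with 4.85, 5.11 and 12.3 normalized counts with *ovo* siRNA, against 15.5, 21.0 and 21.9 with *renilla* siRNA (limma adjusted p = 0.0486). Its *renilla* siRNA libraries alone met the filter of 10 normalized counts in 3 libraries. After detrending *aub* kept its fall, at -1.04 (limma adjusted p = 0.00918), and *AGO3* did not, at -0.66 (adjusted p = 0.293). The 11 summed to 5274 to 5885 with *ovo* siRNA and 4948 to 7546 with *renilla* siRNA. Most of these sums came from *del*, *vas* and *bgcn*, with means of 2516, 2107 and 1233 over the 6 libraries. Their log2 fold changes were -0.70, 0.21 and -0.02 and did not pass. *otu* had a single read in all 6 libraries. Markers of other cells were low apart from single genes: 6 hemocyte markers summed to 537 to 818 with *ovo* siRNA and 319.7 to 632 with *renilla* siRNA, most of it *srp*, and *NimC1* had at most 1.82. The hemocyte marker *Pxn* had 164, 126 and 103 with *ovo* siRNA, against 98.4, 82.1 and 35.0 with *renilla* siRNA. It did not pass (limma adjusted p = 0.106), but after detrending it rose, at 0.90 (limma adjusted p = 0.0283). The 6 muscle markers summed to 205 to 315 with *ovo* siRNA and 407 to 548 with *renilla* siRNA, most of it *sls*. *sls* fell (log2 fold change -1.48; limma adjusted p = 0.00666) but was at 0.21 after detrending (adjusted p = 0.276). *Mlc2* rose on low counts, at 1.19 (adjusted p = 0.0308), and at 1.49 after detrending (adjusted p = 0.0113). The neuron markers other than *elav* had at most 71.1 each, and *para* fell, at -2.10 (adjusted p = 0.00194) and -0.89 after detrending (adjusted p = 0.0396). The part of these cells in the results below was not tested.

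At least 10 normalized counts in 3 libraries were required for a test, which 7893 genes and 6 of the 10 regulators met. One of the 6, *pum*, fell, and none rose. Among all genes tested, 25.9% passed an adjusted p of 0.05 in either direction, 11.8% rising and 14.1% falling, so 1 of 6 is near the background. At an unadjusted p of 0.05, 1 member was higher and 1 lower, which is 2 of 6 where 39.0% of all genes tested passed, and edgeR and DESeq2 on the recovered reads each called 0 rises and 1 fall. The 2 groups did not overlap for *pum* and *bru1*, 2 of the 6, while 45.2% of all genes tested did not overlap. The median log2 fold change was 0.02 over the 6 and 0.04 over all genes tested. In such bulk libraries fewer cells of a type and less RNA per cell cannot be told apart.

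**Figure D1:**
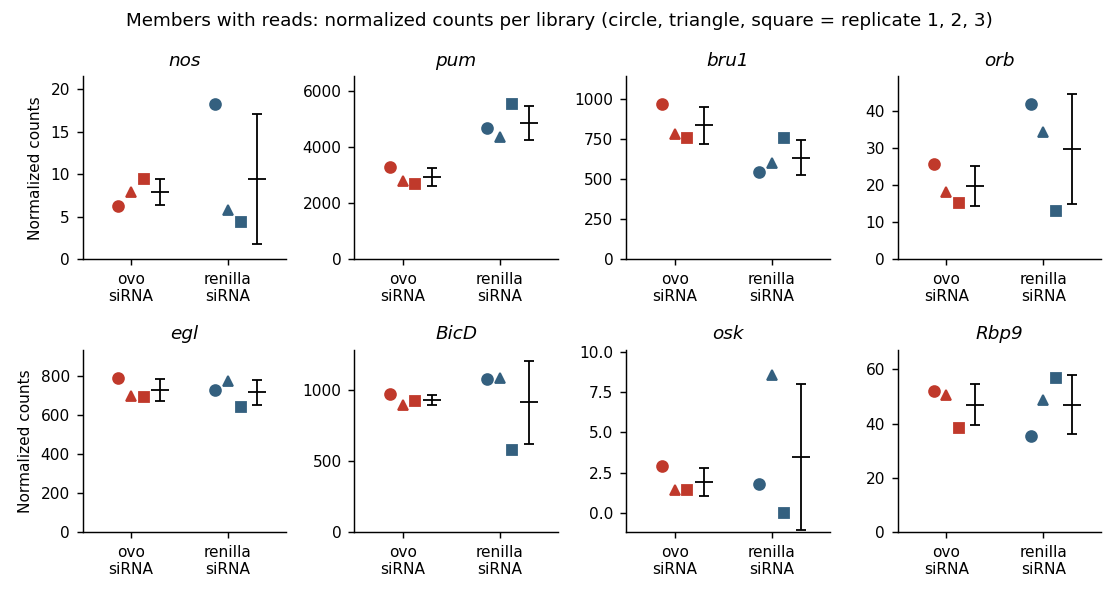
Normalized counts (vertical axis, from 0 where no error bar reaches below it) of the 8 regulators with reads, in 3 ovo siRNA libraries (red, left) and 3 renilla siRNA libraries (blue, right); bars give mean and SD, and *cup* and *BicC* had no reads. The groups are apart only for *pum*, which is lower with ovo siRNA, and, by a small margin, for *bru1*, and renilla siRNA replicate 3 (square) is the lowest of its group for *nos*, *orb*, *egl*, *BicD* and *osk*.

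Pumilio is a sequence-specific RNA-binding protein of the Puf family that recruits repressors and deadenylases to its targets. Its gene lies at 3R:9066343-9237682 on the minus strand and has 11798 bp of exons, more than 98.3% of the genes tested. *pum* had 3286, 2807 and 2679 normalized counts with *ovo* siRNA, against 4682, 4378 and 5539 with *renilla* siRNA. Every *ovo* siRNA library was below every *renilla* siRNA library. The mean was 2924 ± 320.0 with *ovo* siRNA and 4866 ± 602 with *renilla* siRNA (SD), a 1.66-fold fall with a log2 fold change of -0.73 ± 0.15 (SE; limma adjusted p = 0.0111). The call held in 14 of 17 alternatives and was lost without *ovo* siRNA replicate 2 (adjusted p = 0.0721) or replicate 3 (adjusted p = 0.0619). After detrending, the log2 fold change was 0.06 (adjusted p = 0.84), so neither the size nor the direction of the fall was kept.

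Nanos acts with Pumilio and marks the posterior of the embryo and the germline stem cells. Its gene lies at 3R:19157238-19160202, with 2349 bp of exons. It was close to the limit of counting, with 13, 17 and 13 reads with *ovo* siRNA and 20, 6 and 1 with *renilla* siRNA. These are 6.31, 7.90 and 9.43 normalized counts with *ovo* siRNA, against 18.2, 5.73 and 4.38 with *renilla* siRNA. The *ovo* siRNA libraries all lay within the range of the *renilla* siRNA libraries, and no difference could be detected with so few reads. Without the filter, limma gave *nos* a log2 fold change of -0.01 (adjusted p = 0.993) and DESeq2 gave -0.40 (adjusted p = 0.73).

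Bru1, of the Bruno family, binds elements in the 3′ UTR of *osk* mRNA and represses its translation. The gene lies at 2L:12175004-12313438 and its exons span 7791 bp. *bru1* had 968, 783 and 760.0 normalized counts with *ovo* siRNA, against 546, 599 and 758 with *renilla* siRNA. The groups did not overlap, but *ovo* siRNA replicate 3 and *renilla* siRNA replicate 3 were 2.46 apart. The log2 fold change was 0.41 ± 0.17 (SE), with a 95% interval of 0.02 to 0.79, and did not pass (limma adjusted p = 0.113). It passed in 2 of 17 alternatives: without *renilla* siRNA replicate 3 it was 0.54 (adjusted p = 0.00505), and after detrending 1.16 (adjusted p = 0.00599). It was above 0 in all 17, at 0.30 to 1.16.

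Cup, which binds the cap-binding protein eIF4E and Bru1 and so blocks initiation on *osk* mRNA, was listed at 0 in all 6 libraries. All 4306 bp of its exons, at 2L:6663664-6674780, are also exons of *CG34310* on the same strand, so no read could be given to *cup* alone. *CG34310* has 265 bp of its own, and it had 323 reads in all, at 33.8 ± 9.79 normalized counts with *ovo* siRNA and 53.0 ± 16.01 with *renilla* siRNA (SD). The same holds across the table. Of 323 protein-coding genes whose exons are all shared on the same strand, 319 (98.8%) had no read in any library, against 2404 of 13450 (17.9%) of genes with under 50% shared. The 0 of *cup* therefore cannot be read as a level.

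Orb is the fly CPEB protein, which binds 3′ UTRs and promotes polyadenylation and translation of *osk* and of its own mRNA. Its gene lies at 3R:23260610-23280856 on the minus strand, with 9551 bp of exons. *orb* was low, with 25.7, 18.1 and 15.2 normalized counts with *ovo* siRNA, against 41.9, 34.4 and 13.1 with *renilla* siRNA. The last value rests on 3 reads and lies below all *ovo* siRNA libraries, while the other 2 lie above them. The log2 fold change was -0.46 ± 0.45 (SE), with a 95% interval of -1.51 to 0.60 (limma adjusted p = 0.488). Without *renilla* siRNA replicate 3 it fell, at -0.94 (adjusted p = 0.0205), and after detrending the value was 0.52 (adjusted p = 0.297).

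Bicaudal-C is a KH-domain protein that brings the CCR4-NOT deadenylase to its targets, *BicC* mRNA among them. It was also listed at 0 in every library. Of its 4547 bp of exons, at 2L:16042047-16048757, 94.8% are shared on the same strand with *CG45084*, which had no read either. Only 236 bp are its own, and no read was counted there. Like that of *cup*, the 0 of *BicC* cannot be read as a level of the gene.

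**Figure D2:**
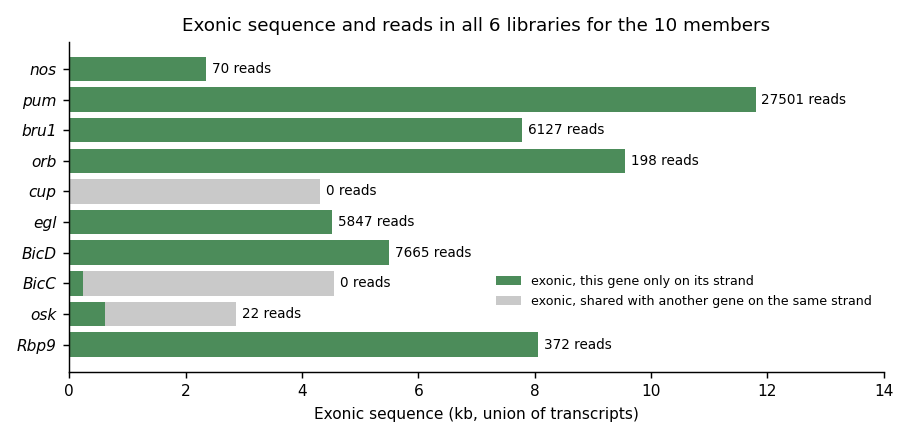
Exonic sequence of the 10 regulators in kb (horizontal axis), split into bases of that gene alone (green) and bases shared with another gene on the same strand (grey), with the reads of all 6 libraries written beside each bar. All of *cup* and 94.8% of *BicC* are shared, and both have 0 reads; *osk*, with 78.5% shared, has 22.

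Egalitarian is an RNA-binding adaptor, and Bicaudal-D is the coiled-coil protein that joins it to dynein. *egl*, on 2R, had 791, 699 and 692 normalized counts with *ovo* siRNA, against 729, 774 and 644 with *renilla* siRNA. The groups overlapped throughout, with means of 727 ± 55.6 with *ovo* siRNA and 716 ± 66.3 with *renilla* siRNA (SD). Its log2 fold change was 0.02 ± 0.13 (SE), and its 95% interval of -0.27 to 0.32 bounds the change that these libraries allow (limma adjusted p = 0.91). It did not pass in any of the 17 alternatives, in which it ran from -0.07 to 0.08.

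*BicD*, at 2L:17459605-17473215 on the minus strand with 5498 bp of exons, had 972, 898 and 924 normalized counts with *ovo* siRNA, against 1077, 1089 and 578 with *renilla* siRNA. Again replicate 3 of *renilla* siRNA was below all *ovo* siRNA libraries and the other 2 above them. The log2 fold change of 0.08 ± 0.24 (SE) had a 95% interval of -0.48 to 0.64 (limma adjusted p = 0.827). It was -0.22 without *renilla* siRNA replicate 3 (adjusted p = 0.0875), and it passed as a rise only after detrending, at 0.62 (adjusted p = 0.0117).

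Oskar nucleates the pole plasm, the cytoplasm that specifies germ cells. Of the 2869 bp of *osk* exons at 3R:8935126-8938395, 78.5% are shared with *lncRNA:osk*, which was at 0 in every library, and 618 bp are its own. *osk* had 6, 3 and 2 reads with *ovo* siRNA, or 2.91, 1.39 and 1.45 normalized counts. With *renilla* siRNA it had 2, 9 and 0 reads, or 1.82, 8.59 and 0 normalized counts. The groups overlapped, and the 0 in *renilla* siRNA replicate 3 allows up to 13.1, above every other value. A difference was thus not detectable (log2 fold change -0.08, limma adjusted p = 0.958 without the filter; DESeq2 -1.07, adjusted p = 0.561).

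Rbp9 is a relative of the neuronal RNA-binding protein Elav that also acts in germline cyst differentiation. The gene lies at 2L:2954762-2968434, with 8054 bp of exons. It had 51.9, 50.6 and 38.4 normalized counts with *ovo* siRNA, against 35.5, 48.7 and 56.9 with *renilla* siRNA. The groups overlapped, at means of 47.0 ± 7.44 with *ovo* siRNA and 47.0 ± 10.8 with *renilla* siRNA (SD). The log2 fold change was 0.01 ± 0.25 (SE; 95% interval -0.58 to 0.60; limma adjusted p = 0.979). After detrending it was 0.88 (adjusted p = 0.0528), the largest value of its 17 alternatives.

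**Figure D3:**
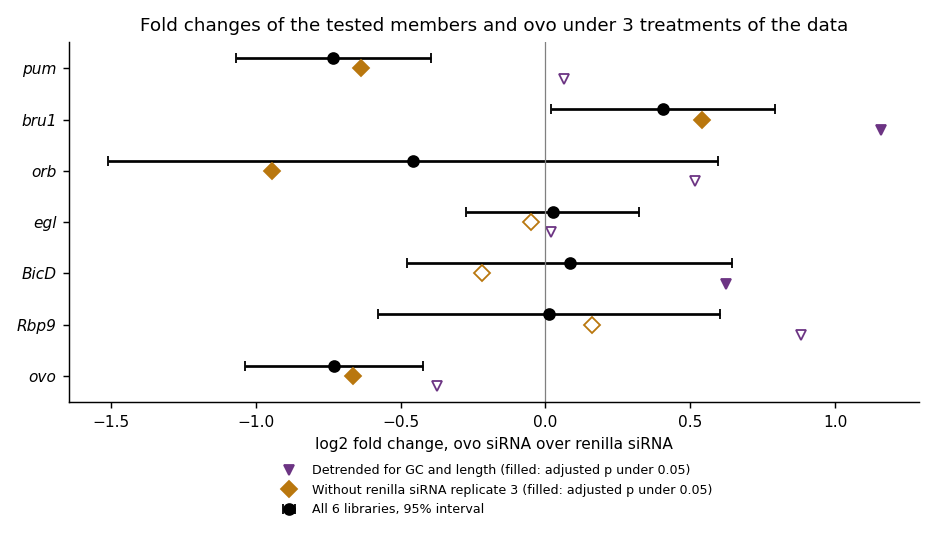
Log2 fold change, *ovo* siRNA over *renilla* siRNA (horizontal axis), of the 6 tested regulators and *ovo* with all libraries (black, 95% interval), without renilla siRNA replicate 3 (orange) and after detrending (purple). Filled orange and purple symbols passed an adjusted p of 0.05: *pum* is at -0.73, -0.64 and 0.06 in the 3 fits, and *bru1* at 0.41, 0.54 and 1.16.

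The regulators formed a higher and a lower set when levels were set per kb of exon, counting only bases that a gene does not share on its strand. In the order of their mean normalized counts per kb, *pum* had 248 ± 27.1 with *ovo* siRNA and 412 ± 51.0 with *renilla* siRNA (SD). *BicD* followed with 169 ± 6.82 with *ovo* siRNA and 166 ± 53.0 with *renilla* siRNA, and *egl* had 161 ± 12.3 with *ovo* siRNA and 158 ± 14.7 with *renilla* siRNA. *bru1* had 107 ± 14.6 with *ovo* siRNA and 81.4 ± 14.2 with *renilla* siRNA. *BicD* and *egl* did not differ beyond their spread. Far below stood *Rbp9* with 5.83 ± 0.923 normalized counts per kb with *ovo* siRNA and 5.84 ± 1.34 with *renilla* siRNA, and *osk* with 3.10 ± 1.39 with *ovo* siRNA and 5.62 ± 7.33 with *renilla* siRNA. By the mean over all 6 libraries the lowest were *nos* with 3.35 ± 0.664 with *ovo* siRNA and 4.02 ± 3.25 with *renilla* siRNA, and *orb* with 2.06 ± 0.567 with *ovo* siRNA and 3.12 ± 1.56 with *renilla* siRNA. With *ovo* siRNA alone *osk* was below *nos*, and with *renilla* siRNA none of these 4 differed from its neighbour beyond the spread. The higher set thus held *pum* and the transport pair *egl* and *BicD* together with *bru1*. The defining germline genes *nos*, *osk* and *orb* were in the lower set. By mean normalized count, not set per kb, *pum* was above 97.4% of the table's 17807 genes, of which 5008 had no read in any library.

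The tested regulators are long genes. All 6 had more exonic sequence than 82.3% of the genes tested, with 4515 bp in *egl* as the shortest. The log2 fold change of all genes moved with exonic length, with a median of 0.03, 0.19 and 0.13 in the first 3 of 4 equal classes by length and -0.23 in the longest class, above 3608 bp. Across 7868 genes Spearman's rho was -0.17, as a description, since genes are not independent replicates. The trend also differed within groups: *renilla* siRNA replicate 1 over replicate 3 had a rho of 0.60 with length, and *ovo* siRNA replicate 1 over replicate 3 the same 0.60. After detrending, the 4 classes lay at 0.05 to 0.08, and 2 regulators rose (*bru1* and *BicD*) and none fell. At an unadjusted p of 0.05, 3 were higher and 0 lower in that fit, where 42.0% of all genes passed in either direction. Among all genes 16.3% rose and 12.3% fell in it. What part length has in the fall of *pum* was not tested beyond this.

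**Figure D4:**
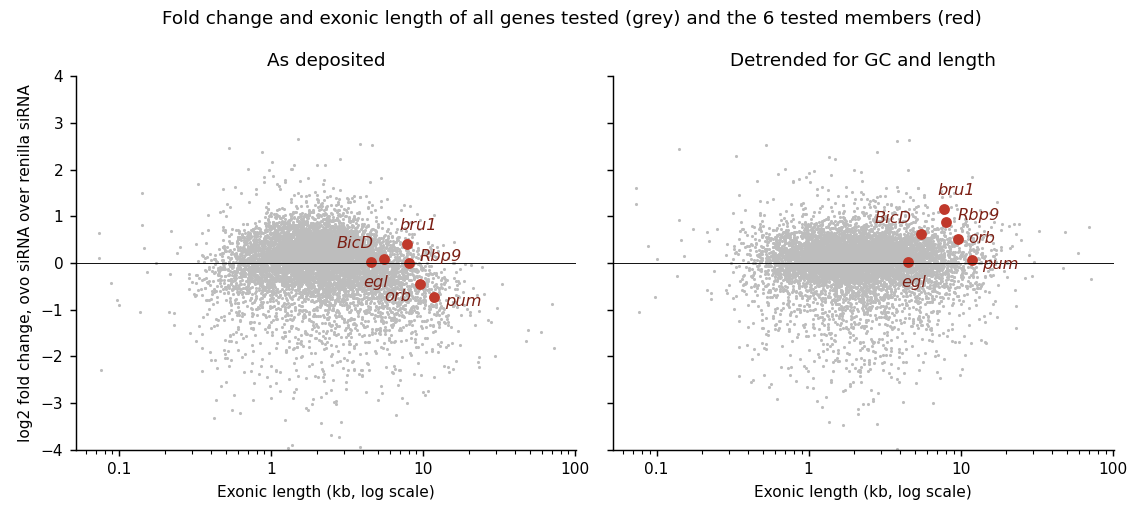
Log2 fold change, *ovo* siRNA over *renilla* siRNA (vertical axis), against exonic length in kb (horizontal, log scale) for all genes tested (grey) and the 6 tested regulators (red), as deposited (left panel) and after detrending (right panel); 2 and 3 genes lie outside the axis. The longest regulator, *pum*, moves from -0.73 in the left panel to 0.06 in the right one, and *egl*, the shortest, stays near 0.

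Genes that act with the regulators were described in 6 lists of 57 genes, of which 55 were tested. Of these, 21 fell and 1 rose, against 14.1% and 11.8% of all genes tested. The lists, like the members, were drawn up with results of these data known, so these counts are a description. The count of falls was 32 of 54 without *renilla* siRNA replicate 3, where 1883 of all 7723 genes tested fell. It was 11 of 55 without *ovo* siRNA replicate 2, where 380 of 7856 fell. After detrending 8 of 55 fell and 3 rose, where 12.3% and 16.3% of all genes did. The counts per list in these settings stand against the same all-gene values. The fates of the lists are described in turn, with the median log2 fold change of each beside the 0.04 of all genes tested.

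Among the 8 tested partners of Nanos and Pumilio, 5 fell (3 without *ovo* siRNA replicate 2) and the median was -0.64, or -0.01 after detrending. *brat*, whose NHL-domain protein joins Pumilio and Nanos on *hunchback* mRNA, had 1498, 1499 and 1555 normalized counts with *ovo* siRNA, against 2647, 2879 and 2767 with *renilla* siRNA (log2 fold change -0.86 ± 0.11, SE; limma adjusted p = 0.00282). *eIF4EHP*, the cap-binding repressor that Brat recruits, had 1490, 1355 and 1395 with *ovo* siRNA, against 2961, 2947 and 3963 with *renilla* siRNA (-1.21 ± 0.15; adjusted p = 0.0027). Both showed no overlap between the groups. *Not1*, the scaffold of the CCR4-NOT deadenylase, and *mei-P26*, a germline relative of *brat*, had log2 fold changes of -1.04 and -1.02. After detrending none of these 4 passed as a fall: *brat* was at 0.35, *eIF4EHP* at -0.28 and *Not1* at -0.49. *mei-P26*, with 23228 bp of exons, passed as a rise at 0.63 (adjusted p = 0.00806). *Pop2*, which had also fallen (-0.42; adjusted p = 0.0282), kept its fall after detrending, at -0.46 (adjusted p = 0.00602). The list then held 1 fall and 1 rise.

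Proteins of the *osk* mRNA particle and its localization made up 17 tested genes, of which 7 fell, with a median of -0.36. Leaving out *renilla* siRNA replicate 3 gave 11 falls, and leaving out *ovo* siRNA replicate 2 gave 3. *stau*, whose double-stranded RNA-binding protein is needed to place *osk* at the posterior, had 2141, 1812 and 1784 normalized counts with *ovo* siRNA, against 3768, 4237 and 4046 with *renilla* siRNA. The groups were far apart, with a 2.10-fold fall (log2 fold change -1.07 ± 0.13, SE; limma adjusted p = 0.00237) that passed in all 17 alternatives, at -1.16 to -0.84. *Imp*, *heph* (the fly PTB) and *sqd*, all encoding proteins that bind *osk* or *gurken* mRNA, had -1.27, -1.12 and -0.80. After detrending they were at 0.03, -0.10 and 0.18 and did not pass, and the list then held 2 falls at a median of -0.03.

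The dynein machinery that Egl and BicD engage had 9 tested genes, 3 of which fell, and a median of 0.05. Without *ovo* siRNA replicate 2 or 3 none of the 9 passed, and without *renilla* siRNA replicate 1 or 2 there was 1 fall. *nudE*, whose protein regulates dynein with Lis-1, had 1174, 1060 and 1034 normalized counts with *ovo* siRNA, against 1842, 1821 and 1524 with *renilla* siRNA (log2 fold change -0.66 ± 0.13, SE; limma adjusted p = 0.0106). It kept its call after detrending, at -0.37 (adjusted p = 0.013), but lost it without *ovo* siRNA replicate 2 or 3. The light chain gene *ctp* and the light intermediate chain gene *Dlic* were at -0.45 each, and missed the threshold in 7 and 8 of the 17 alternatives. After detrending *ctp* was at 0.34 (adjusted p = 0.0661) and *Dlic* at -0.24. The dynein heavy chain gene *Dhc64C* and *Lis-1* were at 0.10 and 0.05 and did not pass. After detrending *Lis-1* passed as a rise, at 0.52 (adjusted p = 0.0036), and *Dhc64C* was at 0.61 (adjusted p = 0.14).

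Of 7 tested regulators of the poly(A) tail and of translation, 2 fell, at a median of -0.32, and without *renilla* siRNA replicate 3 the falls were 5 of 6. *pAbp*, the gene of the cytoplasmic poly(A)-binding protein, had 45382, 46001 and 51046 normalized counts with *ovo* siRNA, against 120949, 126733 and 229167 with *renilla* siRNA. The lowest *renilla* siRNA library had 2.37 times the level of the highest *ovo* siRNA library, and *renilla* siRNA replicate 3 was the highest of all (log2 fold change -1.68 ± 0.28, SE; limma adjusted p = 0.00683). It passed in all 17 alternatives, at -1.85 to -0.64. *larp*, an RNA-binding partner of poly(A)-binding protein, was at -0.93, and at -0.53 after detrending (adjusted p = 0.0588). *wisp*, the germline poly(A) polymerase gene, had 7.76, 6.04 and 7.98 with *ovo* siRNA, against 28.2, 16.2 and 13.1 with *renilla* siRNA, and missed the threshold (-1.23 ± 0.39; adjusted p = 0.0511). The value of 13.1 rests on 3 reads, and *wisp* met the filter of 10 normalized counts only through its 3 *renilla* siRNA libraries. After detrending *wisp* passed as a fall, at -1.17 (adjusted p = 0.0471), and the list again held 2 falls.

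Of 4 tested relatives of the regulators 2 fell, with a median of -0.76, while 4 fell when *renilla* siRNA replicate 3 was left out and 1 when *ovo* siRNA replicate 2 was. The *orb* paralog *orb2* had 252, 216 and 217 normalized counts with *ovo* siRNA, against 488, 496 and 442 with *renilla* siRNA. Its log2 fold change was -1.06 ± 0.13 (SE; limma adjusted p = 0.00287), and it was 14.2 times as abundant as *orb* by mean normalized count, or 15.3 times per kb of exon. *bru3*, a paralog of *bru1*, was at -1.77 (adjusted p = 0.0102) on means of 11.2 ± 1.68 with *ovo* siRNA and 42.2 ± 16.7 with *renilla* siRNA (SD). After detrending neither passed, at -0.01 and -0.46. *elav*, related to *Rbp9*, was at -0.24 and did not pass, but after detrending it rose, at 0.86 (adjusted p = 0.000702).

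In the list of genes for the pole plasm, where *osk* acts, 10 genes were tested, 2 fell and 1 rose, at a median of 0.14. *tud*, whose Tudor-domain protein is a core part of polar granules, had 3648, 2587 and 2600 normalized counts with *ovo* siRNA, against 8275, 9002 and 6700 with *renilla* siRNA. Its 2.73-fold fall was apart in every library (log2 fold change -1.45 ± 0.19, SE; limma adjusted p = 0.003) and passed in all 17 alternatives. *spir*, an actin nucleator gene required for pole plasm assembly, was at -1.26 ± 0.21 (adjusted p = 0.00636) and also passed in all 17. *vls*, which encodes a partner of the arginine methyltransferase Csul that modifies Tudor-binding proteins, rose by 0.63 ± 0.12 (adjusted p = 0.011), with 523, 589 and 525 normalized counts with *ovo* siRNA, against 336, 343 and 377 with *renilla* siRNA. Its call was lost after detrending, at 0.21, and without *ovo* siRNA replicate 2 (adjusted p = 0.0817) or replicate 3 (adjusted p = 0.0511). *vas*, the gene of the germline RNA helicase Vasa, did not pass, with 2252 ± 151 normalized counts with *ovo* siRNA and 1963 ± 271 with *renilla* siRNA (SD; log2 fold change 0.21 ± 0.14, SE).

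**Figure D5:**
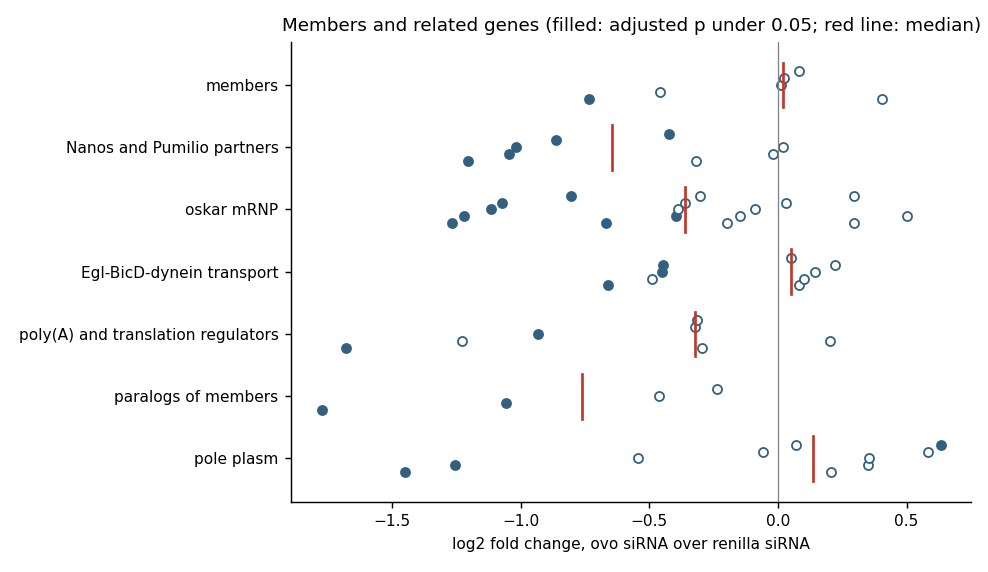
Log2 fold change, *ovo* siRNA over *renilla* siRNA (horizontal axis), of each tested gene in the 6 regulators (members) and the 6 lists of related genes, one row per list; filled points passed an adjusted p of 0.05 and red lines are list medians. Filled points lie to the left of 0 except *vls* at 0.63 in the pole plasm row, and the member median is 0.02.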

How the data were processed

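Polyadenylated RNA from 500 ng of total RNA per library was sequenced with a strand-specific kit, per the labels, in 3 *ovo* siRNA and 3 *renilla* siRNA libraries of Δ*l(3)mbt* OSCs. The study calls the replicates distinct samples without saying whether they were separate cultures, so p-values measure the spread between these libraries, which may be technical. Per the submitters' processing notes, reads were handled with STAR 2.7.3a, cutadapt 1.18, Subread 1.5.3 (featureCounts) and DESeq2 1.30.1 on dm6 (BDGP6). How featureCounts treated reads that overlap several genes is not given in the sources used here. The deposited signal is 1 table of gene counts divided by DESeq2 size factors. Its columns gave whole reads for 100% of values (within 0.01), and edgeR 4.0.16 and DESeq2 1.42.0 on these reads called 1024 and 1142 rises and 1260 and 1492 falls. A deposited DESeq2 comparison, with fold changes and p-values per gene, was not used.

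log2(normalized count + 1) was fitted with limma 3.58.1 (R 4.3.3) with a mean-dependent prior variance for genes that reached 10 normalized counts in 3 or more libraries. The moderated test was two-sided, with Benjamini-Hochberg adjustment over 7893 genes, of which 931 rose and 1114 fell, with a threshold of 0.05. Fold changes are *ovo* siRNA over *renilla* siRNA on that scale, which understates changes of low genes. With 3 against 3 libraries a rank test cannot pass the threshold and none was run. Floors of 3 reads cover counting error only.

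Alternatives were a pseudocount of 0.5 or 5, a filter of 50 or none, TMM and quantile scaling, a replicate block, edgeR, DESeq2, leaving out each library, reads thinned to the smallest library, and a natural spline trend (5 degrees of freedom each) in exonic GC and length taken out of each library (detrending), with values for 99.7% of genes tested. Symbols were matched to a later Ensembl annotation of the same build: 17019 directly, 724 by an older symbol (*nos* is *nanos* there) and 64 not. Motif stretches were read from the RefSeq Release 6 genome. The named genes were all 10 members, *ovo*, *l(3)mbt* and, from each list, at most 4 called genes, by smallest adjusted p, or else the 2 of highest mean. Genes named beyond this rule (*wisp*, *Dhc64C*, *Lis-1*, *elav*, *vas*, *Pop2*, *del*, *bgcn*, *Pxn*, *sls*, *Mlc2*, *para*) were chosen after their values were seen. The members and lists were chosen with earlier results of these data known. The fit was tested on simulated counts with the depth of each library but no trend with length or GC, so that test does not cover such a trend.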

Additional observations from a re-analysis of the deposited data

How the results depend on the processing

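The fall of *pum* was called in 14 of 17 alternatives, and *stau*, *pAbp*, *tud* and *spir* passed in all 17. Leaving out each library gave 116 (without *ovo* siRNA replicate 2) to 2022 (without *renilla* siRNA replicate 3) rises and 380.0 to 1883 falls over all genes by the same omissions, 0 to 1 rises and 0 to 2 falls among the members, and 0 to 2 rises and 11 to 32 falls in the partner lists. It gave *egl* log2 fold changes of -0.049 to 0.084, *BicD* -0.22 to 0.24 and *Rbp9* -0.17 to 0.16. Detrending for GC and length gave 2 rises and 0 falls among the members and 3 rises and 8 falls in the partner lists, and turned the sign of *pum* (0.063), *orb* (0.52), *brat* (0.35), *mei-P26* (0.63), *Imp* (0.034), *sqd* (0.18) and *ctp* (0.34). *egl* was at -0.026 with quantile scaling, -0.0089 with DESeq2 and -0.072 with thinned reads, and *BicD* at -0.0080 with DESeq2. Thinned reads gave 552 rises over all genes. Same-numbered libraries deviated with r of 0.44, -0.14 and 0.46, which does not decide whether the numbers pair them. The main fit held no replicate block. With a replicate block the rises over all genes were 1475 and those in the partner lists 3, and the members' calls stayed at 0 rises and 1 fall. Apart from detrending, where the construction removes any change that follows length, the cause of these shifts was not tested. *nos* and *osk* had 70 and 22 reads in all, and *renilla* siRNA replicate 3 had the highest floor, at 13.1 normalized counts.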
